A study of Mus musculus and Rattus norvegicus with 18 samples.

Results

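Genes of ketone body synthesis, use and transport were followed through the hearts and the cell line: Bdh1, Bdh2, Oxct1, Acat1, Slc16a1, Slc16a6 and Slc16a7. They were taken by symbol alone from a given list of 7, and all 7 were found among the 55487 gene IDs of the heart RNA table, the 17866 genes of the ribosome footprint table and the 32883 gene IDs of the H9C2 table. All 7 also passed the filter on low counts in every comparison. The study asked, per its title, how the tRNA methyltransferase Mettl1 bears on ketone body synthesis and on the metabolism of maturing cardiomyocytes. The hearts came from C57BL/6 mice aged 4 weeks, either Mettl1 conditional knockouts (cKO) or controls (Ctrl), with RNA-seq and Ribo-seq of 2 hearts per genotype and assay. The cells were H9C2, a rat line from embryonic heart tissue of Sprague-Dawley origin, grown in high-glucose medium. In 1 edited line a CRISPR-Cas9 frameshift removes Mettl1 (null), and cells with normal Mettl1 served as wild type (WT), with 3 RNA-seq samples each. The labels used here name neither the Cre driver, the cells it targets nor the alleles of the Ctrl mice, and they do not say whether the 3 samples of a cell group were separate cultures. A p-value therefore covers only the variation among the libraries at hand, part of which may be technical.

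Ketone bodies, mainly acetoacetate and beta-hydroxybutyrate, are made in liver mitochondria from the acetyl-CoA of fatty acid oxidation and are burned by heart, brain and muscle. In a cell that uses them, carriers of the Slc16 family bring them across the membrane, Bdh1 oxidises beta-hydroxybutyrate to acetoacetate, Oxct1 loads acetoacetate with CoA taken from succinyl-CoA, and Acat1 splits the product into acetyl-CoA for the citric acid cycle. Oxct1 is the committed step of ketone use and is nearly absent from liver, while Bdh1 and Acat1 can work in either direction.

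Library depth was 15052652 to 16844783 counts in heart RNA, 25171650 to 39675627 footprints in heart Ribo-seq and 90321496 to 94202947 counts in H9C2. Levels are given as CPM, the deposited count divided by the library's effective size. Mettl1 RNA stood at 2.49 and 2.52 CPM in cKO hearts, against 4.31 and 3.76 CPM in Ctrl hearts (adjusted p = 0.0664 in edgeR's quasi-likelihood test). Mettl1 footprints stood at 2.22 and 2.22 CPM in cKO hearts, against 6.28 and 6.62 CPM in Ctrl hearts (edgeR adjusted p = 1.0e-04), and a gene, Eef1akmt3, overlaps Mettl1. In H9C2, Mettl1 RNA stood at 4.28, 4.72 and 3.75 CPM in null cells, against 16.6, 15.6 and 16.2 CPM in WT cells (edgeR adjusted p = 1.1e-05). The heart libraries held all 8 cardiomyocyte markers, whose summed RNA level was 40757 to 41329 CPM in cKO hearts and 44562 to 45452 CPM in Ctrl hearts, with 4 of 8 lower by the test. The 6 endothelial markers summed to 1755 to 1815 CPM in cKO hearts and 2054 to 2072 CPM in Ctrl hearts, and the 4 erythroid markers to 1564 to 2434 CPM in cKO hearts and 1424 to 1562 CPM in Ctrl hearts. By the test, 3 of the 6 endothelial markers were lower and 3 of the 4 erythroid markers higher in cKO RNA. In cKO footprints, 4 of 8 cardiomyocyte and 1 of 5 tested endothelial markers were lower, and 0 of 4 erythroid markers were called. The median log2 difference of the erythroid markers was 0.41 in RNA and 0.40 in footprints. That of the endothelial markers was −0.20 in RNA and −0.30 in footprints. Of all genes tested in heart RNA, 8.16% were higher and 6.26% lower. The 6 fibroblast markers summed to 1450 to 1589 CPM in cKO hearts and 1427 to 1448 CPM in Ctrl hearts, and the 6 macrophage markers to 592 to 664 CPM in cKO hearts and 549 to 573 CPM in Ctrl hearts, with 0 members of either list called. Des, the intermediate filament gene of muscle, was higher in cKO RNA (log2 0.51, edgeR adjusted p = 7.2e-06). Hepatocyte markers summed to 8.21 to 11.6 CPM in cKO hearts and 9.85 to 12.1 CPM in Ctrl hearts. Most of that sum was Cyp2e1, which averaged 9.50 CPM in cKO hearts and 10.7 CPM in Ctrl hearts. The other hepatocyte markers were near the floor, with Serpina1c, Fgb and Apoc3 at 0 in all 4 RNA libraries. The part of these shifts in the results that follow was not tested, and in bulk tissue fewer cells of a type and less RNA per cell cannot be told apart.

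Levels of different genes were compared per length, as footprint CPM per 1000 codons of the coding frame, since transcript lengths were not used here. The 7 genes fell into a high and a low tier in Ctrl hearts. Acat1 led at 2060 ± 17.4 in cKO hearts and 2497 ± 101 in Ctrl hearts (SD, n = 2 each, as for all heart levels here), ranking 194 of 13514 genes in Ctrl. Oxct1 followed at 1748 ± 97.1 in cKO hearts and 2234 ± 20.5 in Ctrl hearts (rank 210), and Slc16a1 at 1112 ± 27.5 in cKO hearts and 1020 ± 109 in Ctrl hearts (rank 409). The low tier began with Bdh1 at 54.0 ± 5.79 in cKO hearts and 37.6 ± 0.184 in Ctrl hearts (rank 5517). Below it stood Slc16a7 at 14.2 ± 0.121 in cKO and 10.8 ± 0.0355 in Ctrl hearts, Slc16a6 at 10.9 ± 1.46 in cKO and 7.87 ± 1.12 in Ctrl hearts, and Bdh2 at 3.25 ± 0.113 in cKO and 2.29 ± 0.214 in Ctrl hearts (rank 11837). The order was the same in both genotypes, and no neighbours in it overlapped in their libraries. Among the 3 carriers, Slc16a1 held 97.8% and 97.8% of the footprints per codon in cKO hearts, against 98.3% and 98.1% in Ctrl hearts.

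In the hearts, 2 of the 7 genes passed the test in RNA, against 14.4% of all genes tested: Slc16a1 was higher in cKO, as 8.16% of all genes were, and Oxct1 lower, as 6.26% were. In footprints 3 of 7 passed, against 16.4% of all genes: Bdh1 was higher in cKO (9.11% of all genes were), and Oxct1 and Acat1 were lower (7.33% were). The cKO and Ctrl libraries were fully separated for 6 of 7 genes in RNA (55% of all genes) and for 6 of 7 in footprints (55.9% of all genes). The median log2 fold change of the 7 genes was 0.19 in RNA and 0.40 in footprints, beside −0.00013 and 0.0040 over all genes tested, and the values had both signs. In the plot of levels by library, each dot is 1 library.

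**Figure D1:**
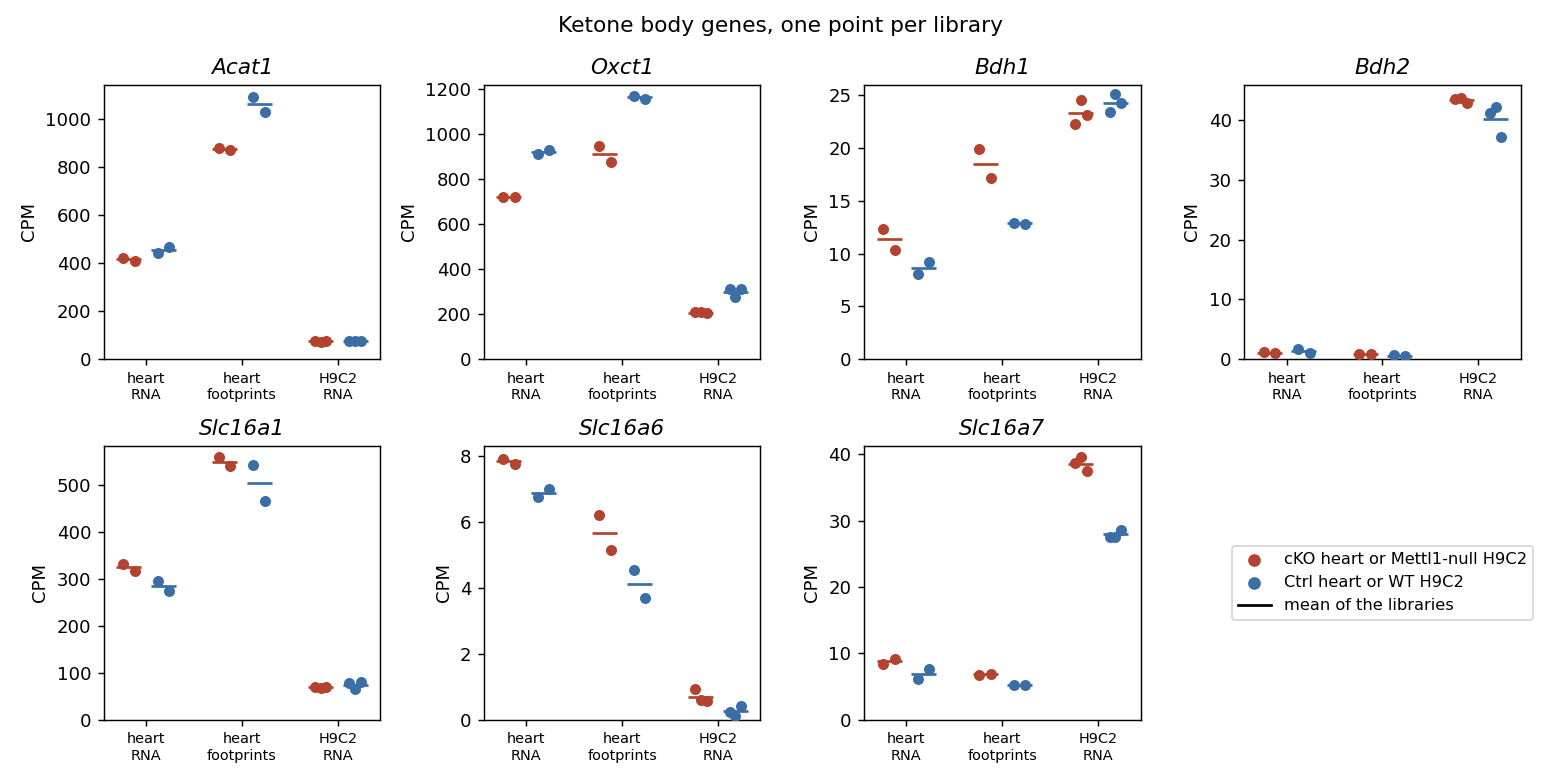
CPM of each gene (linear axis from 0, scaled per gene) in heart RNA, heart footprints and H9C2 RNA, with cKO or null libraries to the left of Ctrl or WT libraries, 1 point per library and a line at their mean. Oxct1 lies lower in cKO and null samples in all 3 tables, while Bdh2 stands near 1 CPM in the hearts and near 40 CPM in H9C2; levels of different genes are not comparable here, because no length is taken into account.

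Bdh1, the mitochondrial dehydrogenase that interconverts beta-hydroxybutyrate and acetoacetate (GRCm38.p6 chromosome 16, 31422297 to 31458901), was higher in cKO footprints. Its footprints stood at 19.9 and 17.1 CPM in cKO hearts, against 12.9 and 12.8 CPM in Ctrl hearts. Both cKO libraries lay above both Ctrl libraries, a 1.44-fold difference (log2 0.52, SE 0.12, edgeR adjusted p = 0.00818), and the call was lost without cKO 1 (adjusted p = 0.160). Bdh1 RNA stood at 12.3 and 10.3 CPM in cKO hearts, against 8.04 and 9.17 CPM in Ctrl hearts, from 125 to 213 counts per library. The RNA libraries also did not overlap, but the difference of 0.40 on the log2 scale (SE 0.15) missed the threshold (edgeR adjusted p = 0.0849). Scaling by library totals (0.0358) or leaving out Ctrl 2 (0.0437) brought it below 0.05. A predicted gene, Gm15743, overlaps Bdh1, and no source used here states whether the counting used strand.

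Bdh2, a cytosolic short-chain dehydrogenase (chromosome 3, 135281221 to 135304426, overlapped by Gm46826), was close to the counting limit in the heart. Its RNA rested on 21 and 15 counts in cKO hearts, against 25 and 17 in Ctrl hearts, and its footprints on 34 and 28 in cKO hearts, against 15 and 18 in Ctrl hearts. The RNA libraries overlapped (log2 −0.29, SE 0.38, edgeR adjusted p = 0.684). The footprint libraries did not overlap, at 0.849 and 0.808 CPM in cKO hearts against 0.624 and 0.546 CPM in Ctrl hearts, but with a log2 difference of 0.51 and an SE of 0.45 the change could not be resolved at this depth (edgeR adjusted p = 0.513).

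Oxct1, the CoA transferase of ketone use (chromosome 15, 4026428 to 4155344, overlapped by the predicted gene BC037032), was the only one of the 7 genes called lower in both heart assays and in H9C2. Its RNA stood at 719 and 719 CPM in cKO hearts, against 912 and 929 CPM in Ctrl hearts. Its footprints stood at 945 and 873 CPM in cKO hearts, against 1169 and 1154 CPM in Ctrl hearts. Both genotypes were well separated in each assay, and the fold was nearly the same in both, 0.781 in RNA (log2 −0.36, SE 0.05, edgeR adjusted p = 1.3e-04) and 0.782 in footprints (log2 −0.35, SE 0.08, edgeR adjusted p = 0.00467). The RNA call held in all 10 alternative settings, and the footprint call was lost without cKO 2 (adjusted p = 0.0895).

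Acat1, the mitochondrial thiolase that ends the pathway (chromosome 9, 53580522 to 53610350), was lower in footprints. They stood at 879 and 868 CPM in cKO hearts, against 1089 and 1028 CPM in Ctrl hearts, with no overlap (log2 −0.28, SE 0.07, edgeR adjusted p = 0.0186). Leaving out cKO 1 (0.126), cKO 2 (0.140) or Ctrl 1 (0.0585), or scaling by library totals (0.0710), took the adjusted p above 0.05. In RNA, Acat1 stood at 420 and 409 CPM in cKO hearts, against 442 and 466 CPM in Ctrl hearts, a log2 difference of −0.13 (SE 0.05) that missed the threshold (edgeR adjusted p = 0.120).

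Of the carriers, Slc16a1 (monocarboxylate transporter MCT1, which moves lactate, pyruvate and ketone bodies together with a proton; chromosome 3, 104638664 to 104658462) was higher in RNA. It stood at 331 and 317 CPM in cKO hearts, against 296 and 274 CPM in Ctrl hearts. The libraries did not overlap, and the difference was small (log2 0.19, SE 0.06, edgeR adjusted p = 0.0439). The call was lost with DESeq2 (0.160) and without cKO 1 (0.220), cKO 2 (0.0544) or Ctrl 2 (0.323). Its footprints stood at 558 and 539 CPM in cKO hearts, against 541 and 465 CPM in Ctrl hearts, so that the genotypes overlapped (log2 0.13, SE 0.08, edgeR adjusted p = 0.365). Slc16a7 (MCT2, a carrier with high affinity for its substrates; chromosome 10, 125219270 to 125389586) stood at 8.45 and 9.11 CPM in cKO RNA, against 6.11 and 7.64 CPM in Ctrl RNA. Its footprints stood at 6.82 and 6.90 CPM in cKO hearts, against 5.20 and 5.22 CPM in Ctrl hearts. Neither separation passed the test (edgeR adjusted p = 0.176 and 0.131). Slc16a6 (MCT7, linked in zebrafish to ketone body export from liver; chromosome 11, 109450855 to 109473598, overlapped by Arsg and Gm45916) had 7.92 and 7.76 CPM in cKO RNA, against 6.76 and 7.002 CPM in Ctrl RNA. Its footprints had 6.22 and 5.14 CPM in cKO hearts, against 4.53 and 3.70 CPM in Ctrl hearts, and its adjusted p was 0.479 in RNA and 0.129 in footprints (edgeR).

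**Figure D2:**
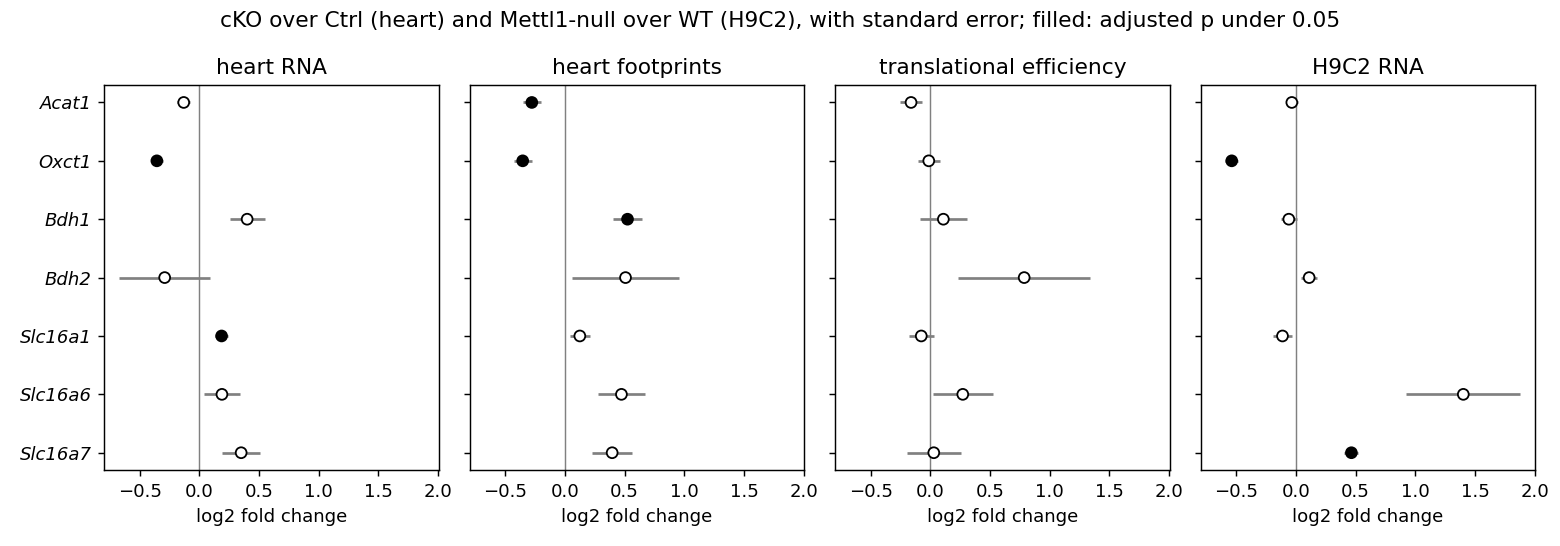
Log2 fold change (cKO over Ctrl in heart RNA, footprints and translational efficiency; null over WT in H9C2 RNA) with its standard error; filled points passed adjusted p 0.05 in edgeR's test and open points did not. Oxct1 lies at −0.36, −0.35 and −0.54 in heart RNA, footprints and H9C2 RNA, and no translational efficiency point is filled.

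Translational efficiency, the change in footprints beyond the change in RNA, did not pass the test for any of the 7 genes, where 0.126% of all genes (16 of 12662) passed. The values were 0.11 (SE 0.19) for Bdh1, 0.79 (SE 0.55) for Bdh2, −0.01 (SE 0.09) for Oxct1 and −0.16 (SE 0.09) for Acat1. The carriers had −0.08 (SE 0.11) for Slc16a1, 0.27 (SE 0.25) for Slc16a6 and 0.03 (SE 0.23) for Slc16a7. The edgeR adjusted p ran from 0.606 for Acat1 to 0.990 for Slc16a7. For every gene but Oxct1, the standard errors leave room for efficiency changes of the size seen in its RNA. For Oxct1 the RNA change was −0.36, beside the efficiency value of −0.01 (SE 0.09). With a replicate block joining the RNA and footprint libraries of 1 number, 134 genes of all passed in place of 16, again with 0 of these 7. DESeq2 called 40 genes and likewise 0 of 7, and 0 of the 7 reached an unadjusted p under 0.05 in edgeR, the lowest being 0.0894 for Acat1. The footprint CPM per RNA CPM, a ratio that also carries transcript length and mapping, differed more between genes than between genotypes. It was 2.09 and 2.12 for Acat1 in cKO hearts, against 2.46 and 2.21 in Ctrl hearts, which put Acat1 at the 91.1 percentile of genes in Ctrl. For Slc16a1 it was 1.68 and 1.70 in cKO hearts, against 1.83 and 1.70 in Ctrl hearts. Bdh1 had 1.62 and 1.66 in cKO hearts, against 1.61 and 1.40 in Ctrl hearts, and Oxct1 had 1.31 and 1.21 in cKO hearts, against 1.28 and 1.24 in Ctrl hearts. Bdh2 had 0.699 and 0.834 in cKO hearts, against 0.388 and 0.505 in Ctrl hearts, on the low counts given above. Slc16a6 had 0.784 and 0.662 in cKO hearts, against 0.671 and 0.529 in Ctrl hearts, and Slc16a7 had 0.807 and 0.757 in cKO hearts, against 0.850 and 0.684 in Ctrl hearts. The genotypes were separated for 3 of 7 genes (Acat1, Bdh1 and Bdh2), as for 42.2% of all genes.

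The footprint table lists reading frames, and the 7 genes had 10 of them, 4 of which passed the test on frames one by one (12.8% of all frames). Slc16a1 had 3 frames, Slc16a7 had a coding frame and a 31-codon frame, and the other genes had a single frame each. Upstream of the 493-codon coding frame of Slc16a1 (GRCm38 chromosome 3, 104649301 to 104655722) lay a 10-codon frame (104649267 to 104649299), with 1 base between it and the coding frame, and a 51-codon frame (104638671 to 104638826) at the start of the gene. The 10-codon frame was higher in cKO hearts. It held 1147 and 1112 footprints in cKO hearts, against 418 and 403 in Ctrl hearts, or 28.3 and 31.6 CPM in cKO hearts against 17.2 and 12.2 CPM in Ctrl hearts. The libraries did not overlap, and the log2 difference was 1.04 (SE 0.14, edgeR adjusted p = 2.1e-04), beside 0.12 (SE 0.08, edgeR adjusted p = 0.434) on the coding frame. Per 100 footprints on the coding frame, the 10-codon frame had 5.13 and 5.96 in cKO hearts, against 3.21 and 2.63 in Ctrl hearts. Its footprints per codon were 2.53 and 2.94 times those of the coding frame in cKO hearts, against 1.58 and 1.30 times in Ctrl hearts. Tested against the other frames of its gene, a test added after these values were seen, it passed (edgeR diffSpliceDGE adjusted p = 0.00303), as did 0.232% of frames (15 of 6478). That call was lost without cKO 1 (0.0570) or cKO 2 (0.159). A frame this short and this near the start codon shares its surroundings with initiating ribosomes, and no source used here says how footprints on the border were assigned.

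The 51-codon frame of Slc16a1 held 225 and 232 footprints in cKO hearts, against 119 and 96 in Ctrl hearts. Per 100 coding-frame footprints it had 1.01 and 1.24 in cKO hearts, against 0.915 and 0.627 in Ctrl hearts, without passing the test on its own (log2 0.66, SE 0.23, edgeR adjusted p = 0.0819) or against the other frames (0.760). By the RefSeq start it begins at base 8 of the transcript with the codon GTG, and its first 14 codons, which lie in the promoter window printed with the other promoters, hold 0 stop codons. The 31-codon frame of Slc16a7 held 28 and 25 footprints in cKO hearts, against 10 and 29 in Ctrl hearts, with overlap (edgeR adjusted p = 0.946).

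**Figure D3:**
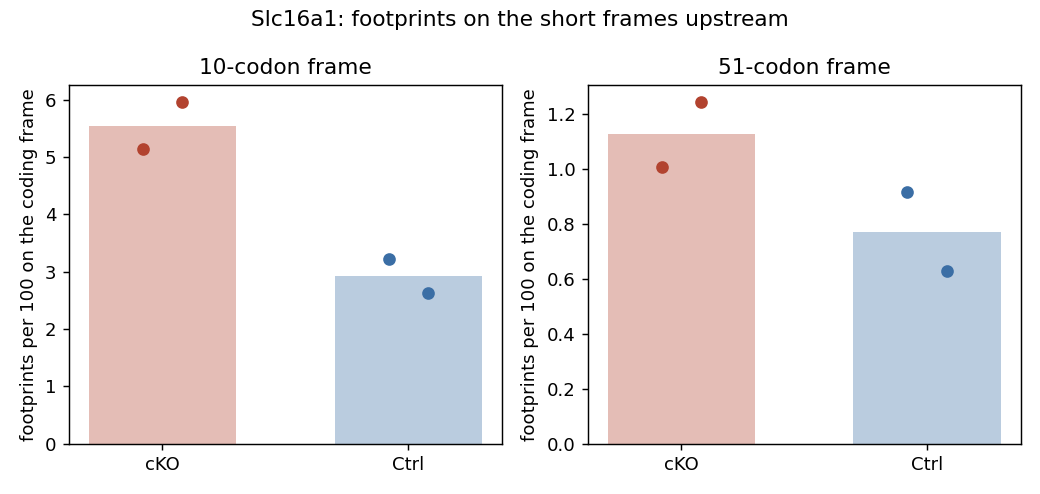
Footprints on the 10-codon and the 51-codon upstream frame of Slc16a1 per 100 footprints on its coding frame, 1 point per heart Ribo-seq library and bars at the mean, cKO left of Ctrl. The 10-codon frame stands at 5.13 and 5.96 in cKO hearts and 3.21 and 2.63 in Ctrl hearts.

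Of the genes called in the hearts, Bdh1 was called higher in footprints, Slc16a1 higher in RNA, Oxct1 lower in both and Acat1 lower in footprints. A call in 1 assay does not show that the assays differ, since translational efficiency passed for none of these genes. Acat1 had no promoter window. Those of Bdh1, Slc16a1 and Oxct1 are printed so that the start of the 51-codon frame and the make-up of each start can be read. They come from RefSeq (GRCm38.p6, plus strand), from 250 bases before the start to 50 after it. Of the 7 genes, 4 matched the promoter table, with 5 starts. Capitals mark matches on either strand to the E-box CACGTG, the GC box GGGCGG, the box motif CCAAT, the TATA motif TATAA or the nuclear receptor motif AGGTCA.
Slc16a1, chr3:104638414-104638713: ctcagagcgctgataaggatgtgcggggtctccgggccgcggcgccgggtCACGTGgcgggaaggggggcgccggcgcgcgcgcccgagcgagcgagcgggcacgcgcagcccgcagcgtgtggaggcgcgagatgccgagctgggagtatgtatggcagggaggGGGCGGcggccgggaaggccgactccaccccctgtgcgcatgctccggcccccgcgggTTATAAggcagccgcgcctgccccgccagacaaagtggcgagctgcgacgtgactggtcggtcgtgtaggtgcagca
Oxct1, chr15:4026178-4026477: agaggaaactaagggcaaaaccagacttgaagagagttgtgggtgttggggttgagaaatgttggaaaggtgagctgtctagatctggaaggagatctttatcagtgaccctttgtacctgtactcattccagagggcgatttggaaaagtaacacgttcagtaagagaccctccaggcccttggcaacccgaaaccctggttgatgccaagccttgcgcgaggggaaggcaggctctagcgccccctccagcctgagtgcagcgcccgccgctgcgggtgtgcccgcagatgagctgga
Bdh1 first start, chr16:31422047-31422346: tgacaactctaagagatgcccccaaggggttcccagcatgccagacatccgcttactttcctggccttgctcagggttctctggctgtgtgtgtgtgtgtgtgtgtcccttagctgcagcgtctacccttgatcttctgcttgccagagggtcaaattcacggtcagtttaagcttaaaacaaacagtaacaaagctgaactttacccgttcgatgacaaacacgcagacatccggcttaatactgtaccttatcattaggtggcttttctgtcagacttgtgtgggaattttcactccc
Bdh1 second start, chr16:31428503-31428802: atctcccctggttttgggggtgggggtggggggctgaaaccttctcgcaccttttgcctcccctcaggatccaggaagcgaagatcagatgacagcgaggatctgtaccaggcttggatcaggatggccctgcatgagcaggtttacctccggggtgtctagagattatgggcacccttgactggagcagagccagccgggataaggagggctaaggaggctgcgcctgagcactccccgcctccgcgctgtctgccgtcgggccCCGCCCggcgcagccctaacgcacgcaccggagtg
The Slc16a1 window was 73.7% G and C, the second Bdh1 window 63.7%, the Oxct1 window 55.3% and the first Bdh1 window 48.3%, beside a median of 52.7% over 32851 promoters. The Slc16a1 window held CACGTG at −200, a hexamer found in 7.15% of all promoters, GGGCGG at −85 (35.7% of promoters), and TATAA read on both strands in 1 overlapping match at −27 and −26 (24.9% of promoters). The second Bdh1 window held GGGCGG on the reverse strand at 16 bases after the start. The Oxct1 window and the first Bdh1 window held none of the 5 motifs, which says only that those letters are not in these windows. Bdh2, whose window had 1 CCAAT match (37.4% of promoters), did not pass any test.

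In H9C2 the question was what loss of Mettl1 did to the same genes in a cultured rat line. Slc16a7 was higher (13.6% of all genes were) and Oxct1 lower (11.5% were) in null cells, 2 of 7 genes called against 25.1% of all genes tested, and the libraries did not overlap for 4 of 7 genes (42.6% of all genes). The median log2 fold change of the 7 was −0.03, beside 0.0044 over all genes. Oxct1 RNA stood at 207, 207 and 205 CPM in null cells, against 310, 277 and 313 CPM in WT cells. All 3 null samples lay below all 3 WT samples, at 0.689-fold (log2 −0.54, SE 0.06, edgeR adjusted p = 2.6e-04). Slc16a7 stood at 38.7, 39.6 and 37.4 CPM in null cells, against 27.6, 27.6 and 28.7 CPM in WT cells, a 1.38-fold difference with no overlap (log2 0.46, SE 0.06, edgeR adjusted p = 6.6e-04). Both calls held in all 12 alternative settings.

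The other 5 genes did not pass in H9C2. Bdh1 stood at 22.2, 24.5 and 23.1 CPM in null cells, against 23.5, 25.1 and 24.2 CPM in WT cells, which overlapped (log2 −0.06, SE 0.07, edgeR adjusted p = 0.574). Acat1 likewise overlapped, at 76.9, 72.9 and 73.4 CPM in null cells against 76.2, 76.9 and 75.4 CPM in WT cells (log2 −0.03, SE 0.05). Bdh2 stood at 43.5, 43.7 and 42.8 CPM in null cells, against 41.2, 42.1 and 37.1 CPM in WT cells, without overlap but at an edgeR adjusted p of 0.254. Slc16a1 stood at 69.2, 68.4 and 68.8 CPM in null cells, against 77.5, 65.3 and 80.4 CPM in WT cells. WT sample 2 was the only one of its group below the null samples, and without it the gene was called lower (log2 −0.20, edgeR adjusted p = 0.0190), beside 0.332 with all samples. Slc16a6 rested on 90, 57 and 53 counts in null cells, against 22, 11 and 39 in WT cells. Its log2 difference of 1.40 (SE 0.48) missed the threshold (edgeR adjusted p = 0.0631) and passed with DESeq2 (0.0364), with a filter of 50 counts (0.0355) and without WT 3 (log2 1.91, 0.0210).

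Set beside the heart, with tables and species normalized apart and no test between them, Bdh2 averaged 43.4 ± 0.484 CPM in null cells and 40.1 ± 2.69 CPM in WT cells (SD, n = 3 each), where heart RNA held 1.09 ± 0.173 CPM in cKO and 1.35 ± 0.373 CPM in Ctrl (SD, n = 2 each). Oxct1 was called lower in both systems, and Slc16a7, called higher in H9C2, had a log2 fold change of 0.35 in heart RNA that did not pass. In H9C2 the 8 cardiomyocyte markers summed to 12.6 to 14.4 CPM in null cells and 25.5 to 27.7 CPM in WT cells, with Ryr2, Myl2 and Myl3 at 0. Members of that list went opposite ways, Tnnt2 with 7.80 CPM in null cells and 23.2 CPM in WT cells, and Pln with 5.27 CPM in null cells and 2.91 CPM in WT cells. Skeletal myoblast markers summed to 276 to 294 CPM in null cells and 150 to 175 CPM in WT cells, and the 6 fibroblast markers to 7736 to 8164 CPM in null cells and 9351 to 9817 CPM in WT cells. In both of these lists too, members were called in opposite directions: Myod1 was higher (log2 0.71) and Myog lower (log2 −1.10), and Postn was higher (log2 0.94) and Col1a1, which makes up most of the fibroblast sum, lower (log2 −0.29) in null cells. The part of these shifts in the Oxct1 and Slc16a7 results was not tested.

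Since Bdh1 feeds Oxct1, their balance was read as the number of Oxct1 counts per Bdh1 count in 1 library, which no scaling between libraries can alter. It was lower in cKO hearts than in Ctrl hearts, in both assays, and lower in null cells than in WT cells. Heart RNA held 58.3 and 69.5 Oxct1 counts per Bdh1 count in cKO hearts, against 113 and 101 in Ctrl hearts. Heart footprints held 47.4 and 51.02 in cKO hearts, against 90.4 and 89.9 in Ctrl hearts. H9C2 held 9.30, 8.45 and 8.88 in null cells, against 13.2, 11.0 and 12.9 in WT cells. The groups did not overlap in any table. For comparison, they did not overlap for 55% of single genes in heart RNA, 55.9% in heart footprints and 42.6% in H9C2. In both heart assays Bdh1 lay higher and Oxct1 lower in every cKO library than in every Ctrl library. The heart ratios therefore had to separate, and their separation and permutation p add nothing to the values of the single genes. In H9C2 the separation did not follow in this way, since Bdh1 overlapped between null and WT cells. The share of gene pairs whose ratio separates the groups was not computed. The log2 ratio of Bdh1 to Oxct1 was higher by 0.75 in heart RNA, by 0.87 in heart footprints and by 0.48 in H9C2, and the two-sided exact permutation p was 0.333, 0.333 and 0.1, each the smallest that 2 against 2 or 3 against 3 samples can give. Of the pair, Oxct1 and Bdh1 each passed the test across genes in heart footprints, while in heart RNA and in H9C2 Oxct1 passed and Bdh1 did not (log2 0.40 and −0.06).

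**Figure D4:**
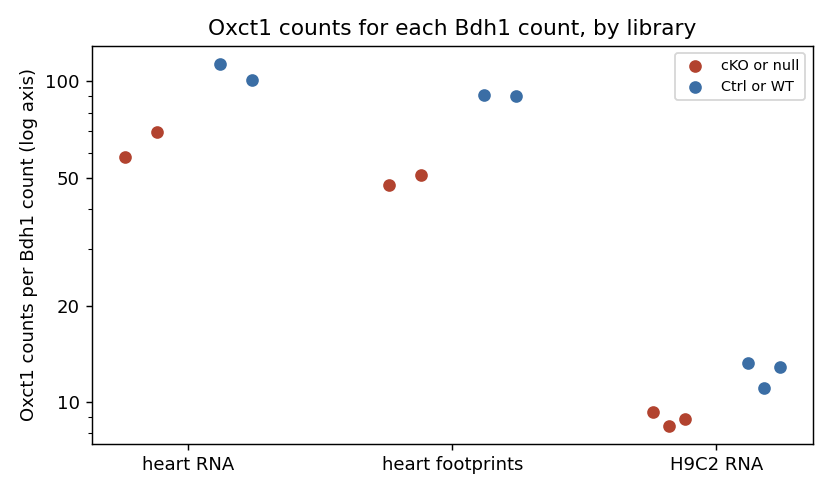
Oxct1 counts per Bdh1 count (log axis) in each library of heart RNA, heart footprints and H9C2 RNA, cKO or null left of Ctrl or WT. The cKO hearts lie between 47.4 and 69.5 and the Ctrl hearts between 89.9 and 113, and the null cells lie below all WT cells.

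The enzymes around the pathway were counted in lists that were chosen with earlier results of these data known. Their counts stand beside all genes tested, of which 8.16% were higher and 6.26% lower in cKO heart RNA, 9.11% and 7.33% in footprints, and, in null cells, 13.6% and 11.5%. Of 12 genes of leucine breakdown, the amino acid route that ends in acetoacetate and acetyl-CoA, 8 fell and 0 rose in cKO heart RNA, and 10 fell and 0 rose in footprints (median log2 −0.45 and −0.43). Ivd, the isovaleryl-CoA dehydrogenase, averaged 269.5 CPM in cKO RNA and 398 CPM in Ctrl RNA (log2 −0.56, SE 0.05, edgeR adjusted p = 4.2e-06). Bckdhb, a subunit of the branched-chain keto acid dehydrogenase, averaged 32.0 CPM in cKO RNA and 48.1 CPM in Ctrl RNA (log2 −0.59, SE 0.08, edgeR adjusted p = 1.4e-04). Bckdk, the kinase that switches that complex off, fell as well (log2 −0.48), as did Dld, the dehydrogenase it shares with other complexes (log2 −0.51). In H9C2, 4 of 12 fell and 0 rose (median −0.18), led by Bcat1, the cytosolic transaminase, at 247 CPM in null cells and 456 CPM in WT cells (log2 −0.88).

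Of the thiolases, CoA transferases, ligases and suppliers of succinyl-CoA, 7 of 11 tested genes fell and 0 rose in cKO heart RNA (median −0.20), and 4 of 13 fell and 1 rose in footprints (median −0.39). Sucla2 and Suclg1, subunits of the succinyl-CoA synthetases that work on the CoA donor of Oxct1, fell in RNA by 0.53 and 0.39 and in footprints by 0.54 and 0.47 on the log2 scale. Acss1, which makes acetyl-CoA from acetate in mitochondria, fell by 0.46 in RNA and 0.60 in footprints. The 1 gene that rose, named after its values were seen, was Aacs, the cytosolic ligase that activates acetoacetate for lipid synthesis, with 11.2 CPM of footprints in cKO hearts and 6.37 CPM in Ctrl hearts (log2 0.81, SE 0.17, edgeR adjusted p = 0.00312, and 0.0772 without cKO 1). Aacs RNA averaged 5.87 CPM in cKO hearts and 5.38 CPM in Ctrl hearts (log2 0.13, edgeR adjusted p = 0.705), and its translational efficiency value of 0.67 did not pass (0.411). In H9C2 1 of 11 rose and 6 fell (median −0.45). Aacs averaged 61.6 CPM in null cells and 131 CPM in WT cells (log2 −1.09), Acat2, the cytosolic thiolase of sterol synthesis, 57.7 CPM in null cells and 145 CPM in WT cells (log2 −1.33), and Acss2, the cytosolic acetate ligase, 17.2 CPM in null cells and 55.1 CPM in WT cells (log2 −1.68). Acat1, the mitochondrial counterpart of Acat2, did not pass there.

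Of 20 tested regulators and suppliers of fatty acid oxidation, 8 fell in cKO heart RNA and 9 in footprints, with 0 rising in either (median −0.17 and −0.24). Ppargc1a, a coactivator of mitochondrial gene programmes, averaged 88.1 CPM in cKO RNA and 173 CPM in Ctrl RNA (log2 −0.97, SE 0.07, edgeR adjusted p = 4.9e-07). Ppara, the nuclear receptor of the fasting response, fell by 0.39 in RNA, and the acyl-CoA dehydrogenases Acadm and Acadvl each fell by 0.31. In H9C2 6 of 19 genes were higher and 1 lower in null cells (median 0.05). Cpt1a, the carnitine transferase that admits fatty acids to mitochondria, averaged 110.3 CPM in null cells and 59.7 CPM in WT cells (log2 0.89). Pdk4 (log2 2.66) and Angptl4 (log2 1.39), both targets of the PPAR receptors, rose too, while Ppard fell (log2 −0.53). Pdk4 and Angptl4 were low in level. Pdk4 averaged 0.944 CPM in null cells and 0.148 CPM in WT cells, and Angptl4 2.39 CPM in null cells and 0.911 CPM in WT cells.

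Of the other monocarboxylate carriers and their partners, 1 of 14 rose (Mpc1) and 1 fell (Slc16a10) in heart RNA, and 0 of 13 rose and 1 fell (Slc16a10) in footprints, each call being lost in 2 of its alternative settings. Of the receptors and targets of hydroxybutyrate, 0 of 5 rose and 1 fell in heart RNA, and 0 rose and 2 fell in footprints. The deacetylase Hdac3 fell in footprints (log2 −0.49) in every setting tried. Its RNA call (log2 −0.31) was lost with DESeq2 (0.142), with library totals (0.106) and without cKO 1 (0.131), cKO 2 (0.113) or Ctrl 2 (0.296). The other footprint call, Hdac2 (log2 −0.30), was lost with library totals (0.0972) and without cKO 1 (0.120), cKO 2 (0.217) or Ctrl 1 (0.197). In H9C2 1 rose, the inflammasome sensor Nlrp3 (log2 1.11), and 1 fell, Hdac2 (log2 −0.20), a call lost without null 2 (0.0525), null 3 (0.0589) or WT 1 (0.0588). Of 23 other short-chain dehydrogenases, 1 rose and 5 fell in heart RNA, 3 rose and 6 fell in footprints, and 4 rose and 4 fell in H9C2. Dhrs11 fell by 0.68 in heart RNA and 0.81 in footprints on the log2 scale. In translational efficiency 0 genes passed in each of the 6 lists.

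Likeness to the 4 genes called in a heart assay was measured as the root mean square difference of centred log2 CPM over the 8 heart libraries, among about 6421 genes with at least 10 CPM in both assays. Closest to Oxct1 were Ccdc141 (0.0240), Mrps35 (0.0241) and Nipsnap2 (0.0262), beside a median of 0.192 over all genes. Closest to Acat1 were Ppp2r2d, Mon2 and Scara5 (0.0247 to 0.0265, median 0.143). Closest to Bdh1 were Itgb1bp1, Spcs1 and Cavin3 (0.0327 to 0.0549, median 0.276), and closest to Slc16a1 were Ctsl, Kpna4 and Tspan12 (0.0248 to 0.0256, median 0.154). These genes lie below the median because they were picked as the closest, and shared regulation was not tested.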

How the data were processed

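RNA-seq and Ribo-seq of heart and RNA-seq of H9C2 cells were analysed; 4 tRNA libraries were not analysed here. The authors deposited whole-number read counts per gene for heart and H9C2 RNA and footprint counts per reading frame for Ribo-seq, units read from the values. Per the submitters' processing notes, the builds were GRCm38 and Rnor_6.0 and the tools included STAR, HISAT2, Bowtie, Bowtie2, cutadapt, featureCounts, StringTie and DESeq2, without saying which made which table. Column names of the H9C2 table end like annotation files, so its counts may derive from transcript coverage.

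Mouse IDs were matched to symbols (55141 of 55487), rat symbols came from the table (32487 of 32883), and 1 frame per gene, that with the most footprints, was kept (98.914% of footprints). Counts were tested with edgeR 4.0.16 in R 4.3.3 (quasi-likelihood, TMM, filterByExpr, Benjamini-Hochberg adjustment over all genes, threshold 0.05); translational efficiency was the interaction of genotype and assay over 8 libraries. The SE is the absolute log2 fold change over the square root of F. CPM use TMM factors. Frames were compared within genes with diffSpliceDGE. Scripts were tested on simulated data. Alternatives were DESeq2 1.42.0, other scalings, filters and frames, a replicate block and leaving out each library. No replicate pair held identical counts.

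RNA and footprint libraries share names and numbers in their labels, which do not say whether a shared number means the same heart. Same-numbered libraries deviated together from their group means (r = 0.16 in cKO, 0.261 in Ctrl, across genes). With 2 libraries a group the deviations mirror each other, so each r is only weak support for a pairing. Same-numbered libraries were taken as paired in the blocked efficiency fit and not in the main fit. Named genes were all 7, Mettl1, at most 4 per list and comparison by smallest adjusted p, and the 3 most alike for each called gene. The 7 genes, the lists and the tests were chosen with earlier results of these data known. The H9C2 result for the other carriers is not reported here.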

Additional observations from a re-analysis of the deposited data

How the results depend on the processing

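Depth limits Bdh2 in the heart (15 to 34 counts a library) and Slc16a6 in H9C2 (11 to 90), and 2 libraries a group limit every heart call; with 1 left out, the lone library is assumed to vary like the other group. The calls among the 7 genes were 2 in heart RNA, 3 in heart footprints and 0 in translational efficiency. In heart RNA 1 was left with DESeq2, and there were 3 with library totals, Bdh1 being added (adjusted p = 0.0358). In footprints Acat1 was lost with library totals (adjusted p = 0.0710). Leaving out 1 library changed which genes were called in both assays, as given above for each gene. Without Ctrl 2, the log2 difference in heart RNA was 0.13 for Slc16a1 and 0.50 for Bdh1. The sign turned in some settings for Bdh2 RNA (−0.55 to 0.022 without each library), for the efficiency of Oxct1 (−0.054 to 0.063, positive without cKO 2 and, at 0.0050, without Ctrl 1), for that of Slc16a7 (−0.13 to 0.17, negative without Ctrl 2, and −0.0046 with all frames summed), and for Acat1 in H9C2 with library totals (0.0039); none of these was called in any setting, and the cause was not tested.

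Over all genes, heart RNA calls went to 1080 with DESeq2 and 1155 without cKO 1, beside 2032, and footprint calls to 1148 without cKO 1, beside 2221. Efficiency calls, 16, became 40 with DESeq2, 134 with the block, and 2, 7 and 7 without cKO 1, Ctrl 1 and Ctrl 2. H9C2 calls, 3720, became 2396, 2354 and 2463 without null 1, null 3 and WT 1. With library totals the share of calls that were higher went to 77.8% in heart RNA (beside 56.6%), 71.4% in footprints (55.4%) and 63.1% in H9C2 (54.1%). The replicate block across genotypes, where numbers did not pair the samples (r = 0.0593 in RNA, 0.021 in footprints, −0.214 to 0.174 in H9C2), gave 3, 3 and 2 calls among the 7 genes, the third in heart RNA being Acat1 (adjusted p = 0.0443). RNA per kilobase was not run, since no transcript length was used here.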
